A study of Rattus norvegicus with 9 samples.

Results

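The genes described here are Phgdh, Psat1, Psph, Shmt1, Shmt2, Mthfd2, Asns, Trib3 and Ddit3, which make serine, use it for folate-bound carbon, or respond to a shortage of amino acids. They were taken by symbol: every array feature annotated with a member as its single gene symbol was used. All 9 genes were found, on 11 features, among 14506 genes on 15310 single-symbol features and 29214 features in all. Psat1 and Mthfd2 had a second feature each, and the feature with the higher mean over all arrays stood for the gene.

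RNA was hybridised to Affymetrix Rat Gene 1.0 ST arrays, 1 array per culture, 9 in all. There were 3 cultures in each of 3 groups, and the series' design text calls them independent. The first group was Schwann cells obtained from SKPs (skin-derived precursors, cells of the dermis grown as floating spheres) after plating in Schwann cell growth medium. The second was Schwann cells isolated from the sciatic nerve and grown in the same medium, and the third was the SKPs themselves, from dorsal trunk skin. All cells came from adult Sprague Dawley rats with no genetic change, and nothing in the labels says whether animals were pooled. Both Schwann cultures were passaged and harvested at confluence, whereas SKPs were harvested as spheres. The labels present the SKP arrays as a reanalysis of samples deposited earlier, so array run, culture form and cell group cannot be told apart in any comparison with SKPs. The tissue field reads dermis for every array, those of the sciatic nerve cells included.

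Serine is made from the glycolytic intermediate 3-phosphoglycerate by the enzymes of Phgdh, Psat1 and Psph, in that order. The hydroxymethyltransferases of Shmt1 (cytosol) and Shmt2 (mitochondria) turn serine into glycine and pass its carbon to folate, and the mitochondrial enzyme of Mthfd2 carries that carbon further towards formate. Uncharged tRNA activates the kinase GCN2 (gene Eif2ak4) and unfolded protein in the endoplasmic reticulum (ER) activates PERK (gene Eif2ak3); both phosphorylate the translation factor eIF2, which raises translation of the transcription factor ATF4. ATF4 is known to act on genes of serine synthesis, on Asns, and on the stress genes Trib3 and Ddit3. Serine is also a precursor of the sphingolipids that myelinating Schwann cells make in large amounts.

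Because the stress genes Trib3 and Ddit3 were both far higher on a single SKP array than on any other (values below), the 100 bases before their annotated starts are shown. Sequences are RefSeq's for the GRCr8 assembly, read along the gene's strand, and capitals mark a match to the composite element TGATGNAA, which C/EBP-ATF dimers can bind, or to the NF-Y box CCAAT, on either strand. The Trib3 stretch lies at chr3:161275534-161275633 on the minus strand, and the Ddit3 stretch at chr7:65001595-65001694 on the plus strand.
Trib3: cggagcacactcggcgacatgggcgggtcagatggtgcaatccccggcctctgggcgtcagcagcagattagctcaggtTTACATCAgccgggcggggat
Ddit3: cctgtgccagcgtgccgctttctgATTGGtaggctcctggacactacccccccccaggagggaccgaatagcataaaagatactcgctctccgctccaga
The window searched ran from 250 bases before to 50 bases after the start, and all 9 genes had an entry. TGATGNAA was present in 1 of 9 windows, that of Trib3 (opposite strand, 21 bases before the start), against 3.98% of 33469 rat promoters. CCAAT was present in 5 of 9, those of Phgdh, Psat1, Shmt1, Mthfd2 and Ddit3, against 37.5% of all promoters. The motifs do not overlap in any of the 9 windows. These matches describe the letters only.

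Levels are log2 intensities after a between-array loess step, and a difference of 1 is 2-fold. A difference was called at an adjusted p under 0.05 from limma (moderated linear model, Benjamini-Hochberg over 14506 genes). Array medians as deposited were 6.33 to 6.44 in SKP-derived Schwann cells, 6.82 to 6.87 in nerve Schwann cells and 6.20 to 6.27 in SKPs, and 6.45 to 6.59 over all arrays after the loess step, which takes most genes as unshifted. Of 10 Schwann markers measured, 9 were called higher and 1, Gap43, lower in each Schwann group than in SKPs. The Gap43 call was lost in SKP-derived cells without SKP-derived array 3, and in nerve cells without any of the nerve arrays or SKP array 1 or 2. Of 12 dermal mesenchymal markers, 9 were called lower in each. SKP array 3 stood apart. It lay more than 1 log2 unit below both other SKP arrays at 8 of 12 dermal markers and 8 of 11 proliferation markers. Of all genes, 3.45% lay that far below. It was the highest SKP array at 12 of 12 hypoxia markers, against 35.6% of all genes. SKP-derived array 2 lay more than 1 unit above both others of its group at 9 of 12 dermal markers, against 2.11% of all genes. Where leaving out either array changes a call of one of the 9 genes, the value without it is given.

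In SKP-derived Schwann cells against SKPs, 3 of 9 genes were called higher, the 3 enzymes that make serine, and 0 were called lower (3 higher and 1 lower at an unadjusted p under 0.05). Of all genes, 18.6% were called higher and 23.9% lower in that comparison. In nerve Schwann cells against the same SKP arrays, 1 of 9 was called higher (Psph) and 1 lower (Mthfd2), with 2 each way at an unadjusted p under 0.05, while 22.4% of all genes were called higher and 25.6% lower. Between SKP-derived and nerve Schwann cells, 1 of 9 was called higher (Psat1) and 0 lower (4 higher and 0 lower at an unadjusted p under 0.05), with 0.731% of all genes called higher and 0.6% lower. The median difference of the 9 genes was 0.18, -0.57 and 0.53 in these comparisons, in the same order, beside -0.03, -0.03 and -0.02 for all genes. With 9 genes, the counts in the comparisons with SKPs are not far from these backgrounds and are no result about the genes as a group. Without SKP array 3, the comparison of SKP-derived cells with SKPs gave 3 higher and 1 lower (18% and 24.5% of all genes), and that of nerve cells with SKPs 2 higher and 2 lower (21.8% and 26.4%). Both comparisons use the same SKP arrays. In a bulk culture, fewer cells of a type and less RNA per cell cannot be told apart.

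**Figure D1:**
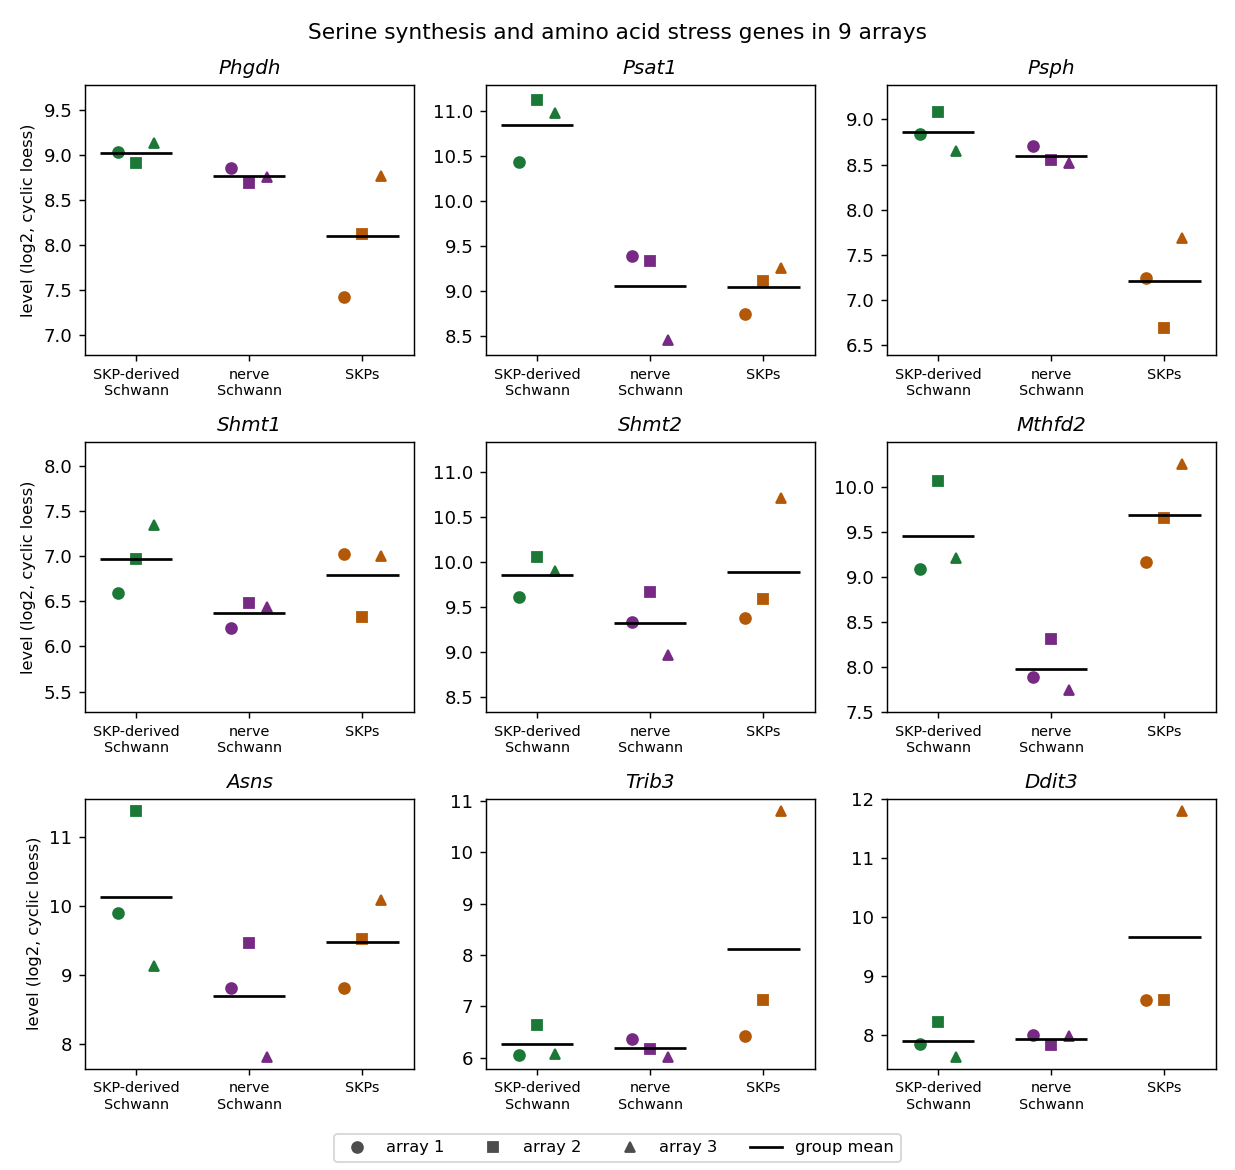
Levels of the 9 genes on each array (log2 intensity after loess, y axis; axis ranges differ between panels), in SKP-derived Schwann cells, nerve Schwann cells and SKPs, with points for the 3 arrays of a group and a bar for the mean. Trib3 and Ddit3 show 1 SKP array far above the other 8, at 10.80 and 11.80.

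Phgdh, the dehydrogenase of the opening step of serine synthesis, stood at 9.03, 8.90 and 9.13 in SKP-derived Schwann cells and at 8.85, 8.68 and 8.75 in nerve Schwann cells, against 7.42, 8.12 and 8.76 in SKPs. The SKP arrays spread over more than 1 unit; all SKP-derived arrays were above them and above the nerve arrays, while nerve arrays overlapped SKP array 3. Phgdh was higher in SKP-derived cells than in SKPs by 0.92 (SE 0.28), or 1.89-fold, with a limma adjusted p of 0.0262. The nerve cells' difference of 0.66 (SE 0.28) was not called (limma adjusted p 0.0798), nor was the 0.26 between the Schwann groups (limma adjusted p 0.643), whose interval ran from -0.37 to 0.89. Without SKP array 3 both Schwann groups were called higher than SKPs, by 1.25 (limma adjusted p 0.00141) in SKP-derived cells and 0.99 (limma adjusted p 0.00413) in nerve cells. Without SKP array 1, the lowest for Phgdh, they were 0.58 (limma adjusted p 0.0451, called) and 0.32 (limma adjusted p 0.21, not called). The call for SKP-derived cells was lost without SKP-derived array 1, SKP-derived array 3 or SKP array 2 (limma adjusted p 0.065, 0.0717 and 0.06).

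Psat1, the aminotransferase of the following step, separated the Schwann groups. Its levels were 10.43, 11.12 and 10.97 in SKP-derived cells, 9.38, 9.33 and 8.46 in nerve cells, and 8.75, 9.11 and 9.26 in SKPs. Every SKP-derived array exceeded the other 6 arrays by more than 1 unit, and nerve cells and SKPs overlapped. Psat1 was higher in SKP-derived cells than in SKPs by 1.80 (SE 0.28), or 3.48-fold (limma adjusted p 0.000898). It was higher in SKP-derived than in nerve Schwann cells by 1.78 (SE 0.28), or 3.44-fold (limma adjusted p 0.0265). That second call was lost on leaving out any of 6 arrays: SKP-derived array 2 or 3, any of the nerve arrays, or SKP array 2, with differences of 1.48 to 1.94 and limma adjusted p of 0.0503 to 0.11. Nerve cells and SKPs differed by 0.02 with an interval of -0.61 to 0.65 (limma adjusted p 0.960).

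The second Psat1 feature had lower levels and gave the same order of means, with nerve cells further above SKPs. It read 7.80, 8.63 and 8.39 in SKP-derived cells, 7.34, 6.99 and 6.89 in nerve cells, and 6.20, 6.28 and 6.63 in SKPs, with no overlap between any pair of groups. SKP-derived cells were higher than SKPs by 1.90 (limma adjusted p 0.000208) and higher than nerve cells by 1.20 (limma adjusted p 0.0453). Unlike the first feature, it was also called higher in nerve cells than in SKPs, by 0.70 (limma adjusted p 0.0297). The features thus differ in the call for nerve cells against SKPs and not in the calls for SKP-derived cells. Their intervals for nerve cells minus SKPs, -0.61 to 0.65 and 0.19 to 1.22, overlap. The features were not tested against each other.

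Psph, the phosphatase that releases serine, was high in both Schwann groups. It stood at 8.84, 9.08 and 8.65 in SKP-derived cells and 8.70, 8.55 and 8.52 in nerve cells, against 7.24, 6.69 and 7.69 in SKPs. All 6 Schwann arrays lay above all 3 SKP arrays, and the Schwann groups overlapped. Psph was higher by 1.65 (SE 0.23), or 3.14-fold, in SKP-derived cells (limma adjusted p 0.000537) and by 1.39 (SE 0.23), or 2.61-fold, in nerve cells (limma adjusted p 0.0013). Between the Schwann groups the difference was 0.27 with an interval of -0.26 to 0.79 (limma adjusted p 0.563).

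The calls for Psph, and for Psat1 against SKPs, held on leaving out each of the 9 arrays in turn. For Psph the difference ranged from 1.39 to 1.89 in SKP-derived cells and from 1.13 to 1.63 in nerve cells, both against SKPs. For Psat1 in SKP-derived cells against SKPs it ranged from 1.65 to 2.0.

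**Figure D2:**
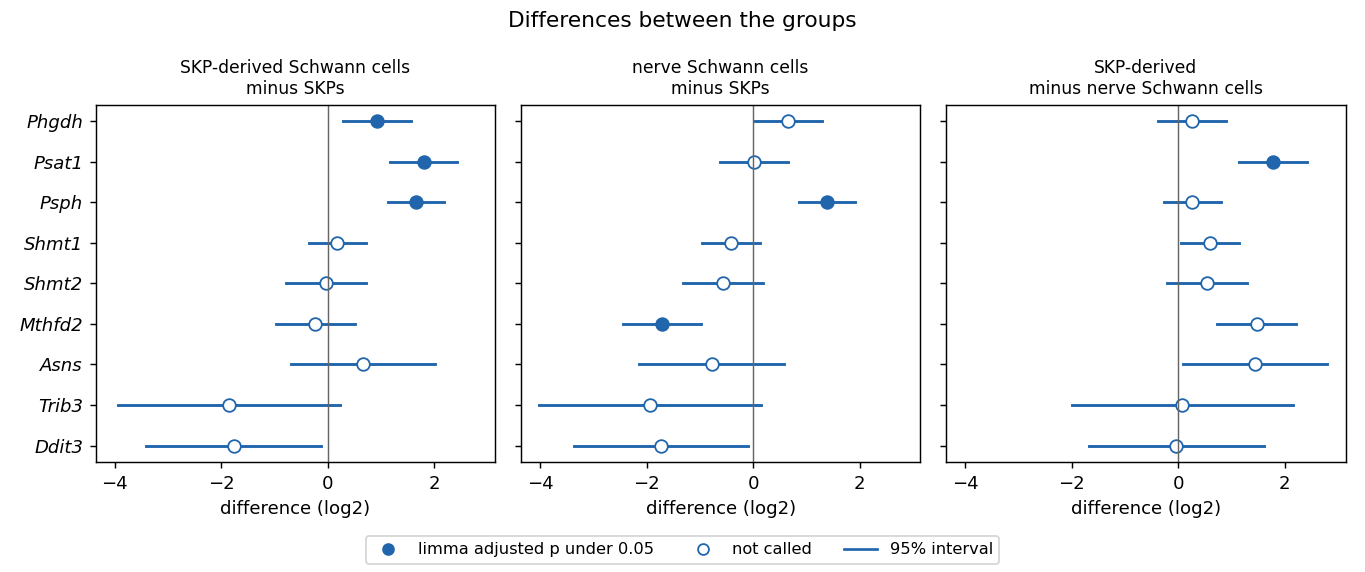
Differences of the 9 genes in the 3 comparisons (log2 units, first-named group minus second), with 95% confidence intervals from limma and filled points for those called at an adjusted p under 0.05. Phgdh, Psat1 and Psph lie above 0 for SKP-derived Schwann cells minus SKPs, and the intervals of Trib3 and Ddit3 are the widest.

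Of the 3 enzymes that use serine or its carbon, none was called in SKP-derived cells against SKPs in either direction, with all arrays or without SKP array 3. Shmt1 stood at 6.59, 6.97 and 7.34 in SKP-derived cells, 6.20, 6.48 and 6.44 in nerve cells, and 7.03, 6.33 and 7.01 in SKPs. SKP-derived and nerve arrays did not overlap, but SKP array 2 was as low as nerve cells. Its differences of 0.18 (SKP-derived minus SKPs), -0.42 (nerve minus SKPs) and 0.60 (SKP-derived minus nerve) were not called, with limma adjusted p of 0.571, 0.178 and 0.210. Without SKP array 2, nerve cells were called lower than SKPs by -0.64 (limma adjusted p 0.0429), and on the deposited scale the nerve difference was 0.13.

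Shmt2 stood at 9.61, 10.06 and 9.90 in SKP-derived cells, 9.33, 9.66 and 8.96 in nerve cells, and 9.38, 9.58 and 10.71 in SKPs. SKP array 3 was 1.12 above the other SKP arrays, and the groups overlapped in all comparisons. The differences were -0.04 for SKP-derived cells and -0.57 for nerve cells against SKPs, and 0.53 between the Schwann groups, none called (limma adjusted p 0.943, 0.183 and 0.403). With SKP array 3 left out, they were 0.37 for SKP-derived cells and -0.16 for nerve cells, and with SKP array 1 left out -0.29 and -0.83, none called.

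Mthfd2 was low in nerve Schwann cells. Its levels were 9.09, 10.06 and 9.21 in SKP-derived cells, 7.88, 8.30 and 7.75 in nerve cells, and 9.16, 9.65 and 10.25 in SKPs. The 3 nerve arrays were below the other 6, while SKP-derived cells and SKPs overlapped. Mthfd2 was lower by 1.71 (SE 0.33) in nerve cells than in SKPs, which were 3.27-fold higher (limma adjusted p 0.00254). This call held without each array in turn, at differences of -1.97 to -1.43. SKP-derived cells differed from SKPs by -0.24, with an interval of -0.97 to 0.50 (limma adjusted p 0.593), by 0.0462 without SKP array 3 and by -0.54 without SKP-derived array 2, neither called. The 1.47 between SKP-derived and nerve cells was not called (limma adjusted p 0.0643), but was called without SKP array 3 (limma adjusted p 0.0323), an array that bears on this comparison through the shared estimate of the spread. It was also called on the deposited scale (1.22, limma adjusted p 0.0141), with each array centred on its median (1.70, limma adjusted p 0.0274) and with only the 6 Schwann arrays fitted (limma adjusted p 0.0458).

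The second Mthfd2 feature gave the same order of means as the first. It read 8.61, 9.11 and 8.88 in SKP-derived cells, 7.41, 7.97 and 7.07 in nerve cells, and 8.92, 9.29 and 9.93 in SKPs. The nerve difference from SKPs of -1.90 was called (limma adjusted p 0.00083), and those of -0.51 for SKP-derived cells against SKPs and 1.39 between Schwann groups were not (limma adjusted p 0.196 and 0.0595).

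Asns, the synthetase that makes asparagine from aspartate and glutamine, varied within groups as much as between them. It stood at 9.89, 11.37 and 9.13 in SKP-derived cells, 8.80, 9.46 and 7.82 in nerve cells, and 8.82, 9.51 and 10.09 in SKPs. SKP-derived array 2 was 1.48 above both others of its group, and all groups overlapped. The difference of SKP-derived cells from SKPs was 0.66 with an interval of -0.70 to 2.02 (limma adjusted p 0.407), and 0.04 without SKP-derived array 2. It was 0.33 without SKP array 1 and 1.16 without SKP-derived array 3. The nerve difference from SKPs was -0.78 (limma adjusted p 0.312), and -0.47 without SKP array 3. Between SKP-derived and nerve cells it was 1.44 (limma adjusted p 0.226), and 0.82 without SKP-derived array 2, the array with raised dermal markers. The part of those markers in the Asns level was not tested.

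Trib3, which encodes a pseudokinase induced by ATF4 and CHOP, was low on 8 arrays and high on 1. It stood at 6.06, 6.65 and 6.07 in SKP-derived cells and 6.36, 6.16 and 6.02 in nerve cells, against 6.42, 7.13 and 10.80 in SKPs. SKP array 3 was 3.68 above both other SKP arrays, the gap ranked 2 among 14506 genes. The differences of -1.86 for SKP-derived cells and -1.94 for nerve cells against SKPs were not called (limma adjusted p 0.135 and 0.112). Without SKP array 3 they were -0.52 and -0.59 (limma adjusted p 0.136 and 0.0848), and without SKP array 1 they were -2.71 and -2.79 and both called lower (limma adjusted p 0.0414 and 0.0339). The Schwann groups differed by 0.08, with an interval of -2.0 to 2.16.

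Ddit3, which encodes the transcription factor CHOP, had the same array on top. It stood at 7.84, 8.22 and 7.64 in SKP-derived cells and 8.0, 7.83 and 7.98 in nerve cells, against 8.6, 8.6 and 11.80 in SKPs. All SKP arrays were above all Schwann arrays, and SKP array 3 was 3.20 above both other SKP arrays (the gap ranked 8). With that array, the differences of -1.76 for SKP-derived cells and -1.73 for nerve cells were not called (limma adjusted p 0.0795 and 0.0773). Without it they were smaller, -0.70 and -0.66, and both were called lower (limma adjusted p 0.0127 and 0.0142); both were also called without SKP array 1 or 2, at -2.30 in SKP-derived cells (limma adjusted p 0.0453 and 0.0458) and -2.26 in nerve cells (limma adjusted p 0.0434 and 0.044). The Schwann groups differed by -0.04, with an interval of -1.68 to 1.61 (limma adjusted p 0.985).

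**Figure D3:**
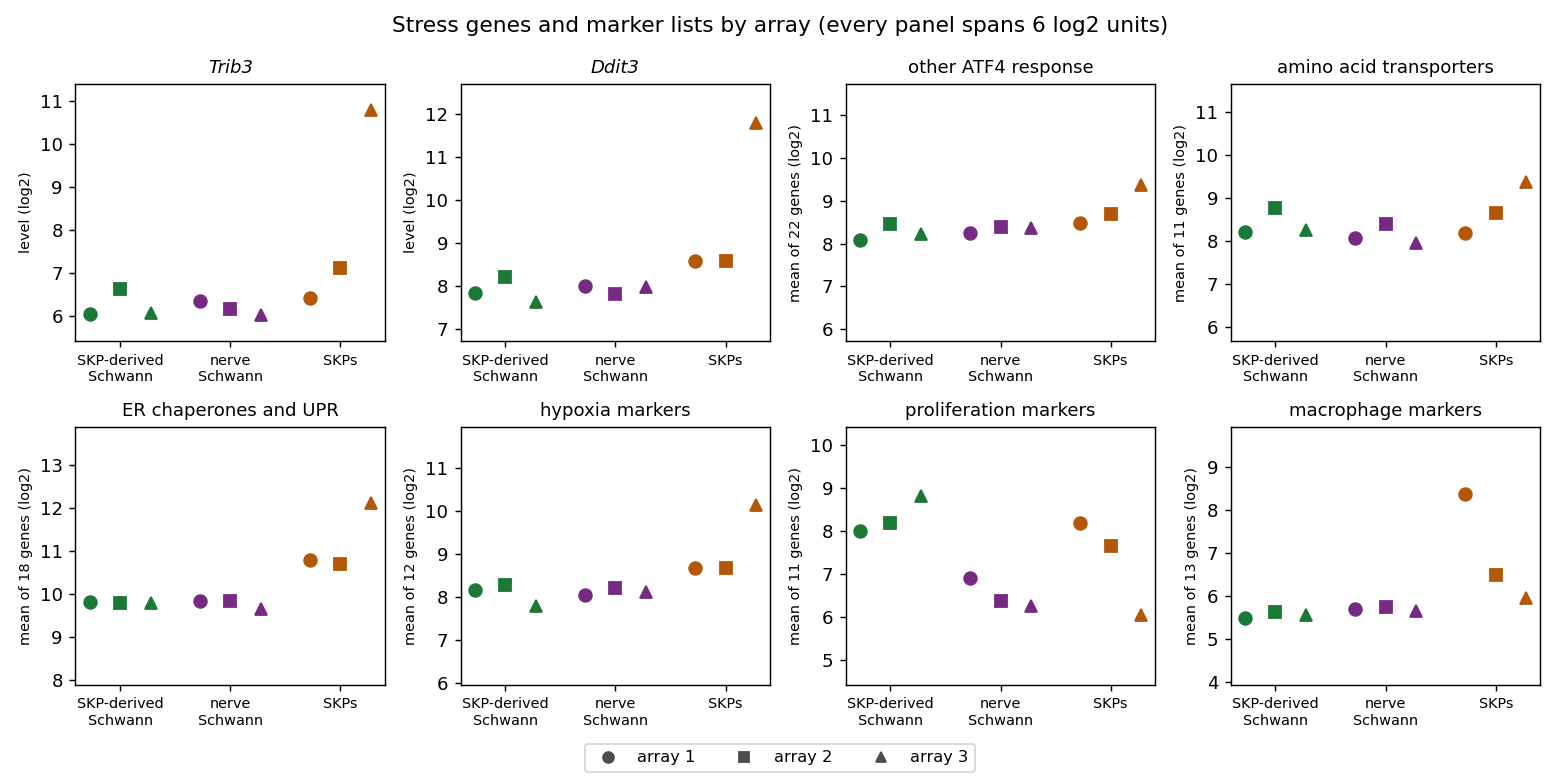
Levels on the 3 SKP arrays and the 6 Schwann arrays of the stress genes and of mean levels over marker lists (log2 intensity after loess). SKP array 3 is the highest array for Trib3 (10.80), Ddit3 (11.80) and the ER stress list (12.13), and the lowest of all 9 for proliferation markers (6.04).

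SKP array 3 was the highest SKP array at 8 of 9 genes, against 35.6% of all genes. It lay more than 1 unit above both others at 3 of 9 (Shmt2, Trib3 and Ddit3), against 1.7% of all genes. The same was so of 11 of 18 genes of the ER unfolded protein response, 6 of 22 other ATF4-linked genes and 4 of 11 amino acid transporters. Other related lists had few such genes. These were 1 of 27 other genes of serine, glycine and folate-carbon metabolism and 1 of 19 cytosolic tRNA synthetases. Of genes of glucose uptake and glycolysis it was 1 of 14, and of eIF2 kinases and their partners 0 of 10. The mean of the ER list was 9.79 to 9.82 on SKP-derived arrays and 9.65 to 9.84 on nerve arrays, against 10.80, 10.69 and 12.13 on SKP arrays. The mean of the hypoxia markers was 7.78 to 8.27 on SKP-derived arrays and 8.05 to 8.21 on nerve arrays, against 8.68, 8.68 and 10.14 on SKP arrays. Proliferation markers averaged 7.99 to 8.81 on SKP-derived arrays and 6.25 to 6.91 on nerve arrays, against 8.19, 7.65 and 6.04 on SKP arrays. Macrophage markers averaged 5.48 to 5.63 on SKP-derived arrays and 5.63 to 5.74 on nerve arrays, against 8.38, 6.49 and 5.94 on SKP arrays. SKP-derived array 2 was the highest of its group at 7 of 9 genes, against 37.2% of all. The part of cell makeup or culture state in these levels was not tested.

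Upstream of these genes, Atf4 mRNA was at 10.14, 10.14 and 9.96 in SKP-derived cells and 9.82, 10.12 and 10.14 in nerve cells, against 10.25, 10.51 and 11.14 in SKPs. The SKP arrays were above all Schwann arrays. Atf4 was lower by 0.60 in nerve cells (limma adjusted p 0.0437), and the difference of -0.55 in SKP-derived cells was not called (limma adjusted p 0.0657). ATF4 is controlled mostly in translation, which arrays do not measure. The Atf4 differences without SKP array 3 were -0.30 in SKP-derived cells and -0.35 in nerve cells, neither called (limma adjusted p 0.146 and 0.0874). Eif2ak3 (PERK) differed from SKPs by -1.08 in SKP-derived cells and -0.95 in nerve cells, both called lower (limma adjusted p 0.00612 and 0.0102), and at -0.77 and -0.65 they stayed called without SKP array 3. Eif2ak4 (GCN2) differed from SKPs by -0.19 in SKP-derived cells and 0.01 in nerve cells, neither called (limma adjusted p 0.247 and 0.956). These lists and genes were chosen with earlier results known.

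Around the 9 genes, 7 lists of the same pathways held 121 other measured genes. Of these, 8 were called higher and 60 lower in SKP-derived cells than in SKPs, and 10 higher and 66 lower in nerve cells than in SKPs. The shares over all genes were 18.6% higher and 23.9% lower in SKP-derived cells, and 22.4% and 25.6% in nerve cells. On the deposited scale, where nerve arrays are brighter throughout, the nerve split of the 121 was 22 higher and 50 lower. With each array centred on its median it was 3 higher and 77 lower. Between the Schwann groups limma called 0 of 121 in either direction (9 higher and 5 lower at an unadjusted p under 0.05). Over all genes 0.731% were called higher and 0.6% lower in that comparison, so 0 of 121 is not far from the background. Of the 121, 1 was called higher and 17 lower on the deposited scale, and 3 and 0 with median centring. Without SKP array 3, 4 genes of the serine, glycine and folate-carbon list and 1 transporter were called higher in SKP-derived than in nerve cells.

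**Figure D4:**
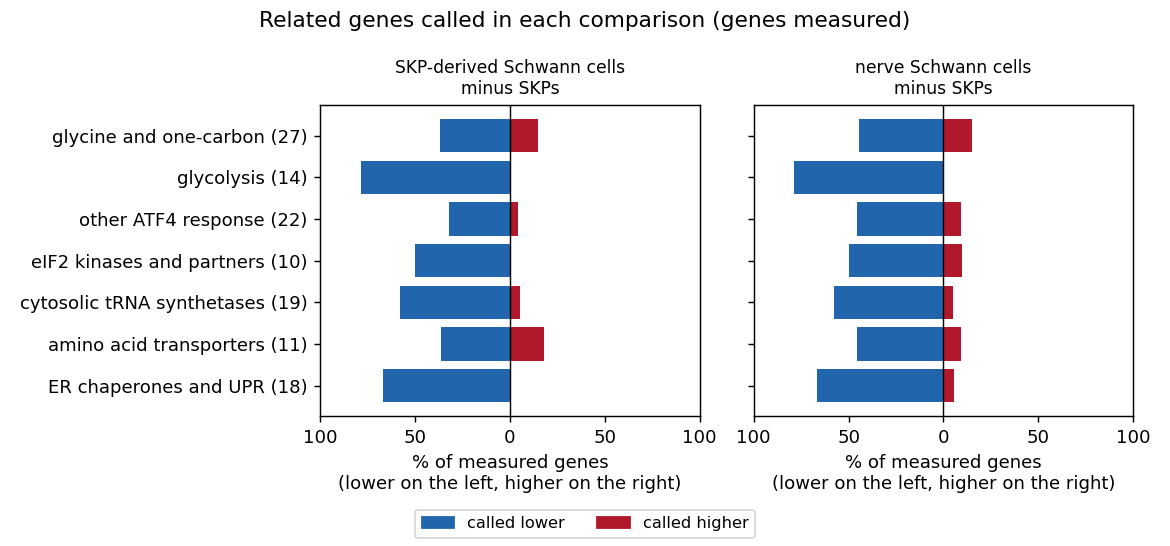
Percent of measured genes called higher (to the right of 0) and lower (to the left) at a limma adjusted p under 0.05 in each of 7 pathway lists, with the number measured in brackets, for SKP-derived Schwann cells minus SKPs and nerve Schwann cells minus SKPs. In each list the lower calls outnumber the higher ones, for example 11 and 0 of 14 glycolytic genes in both panels. Over all genes, too, more were called lower than higher (23.9% and 18.6% in the first panel's comparison, 25.6% and 22.4% in the second's).

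Among 27 other genes of serine, glycine and folate-carbon metabolism, 4 were called higher and 10 lower in SKP-derived cells against SKPs (list median -0.18), and 4 higher and 12 lower in nerve cells (median -0.35). The nerve counts were 10 higher and 8 lower on the deposited scale, and 1 higher and 14 lower with median centring. Aldh1l2, the mitochondrial 10-formyltetrahydrofolate dehydrogenase, differed from SKPs by -3.54 in SKP-derived cells and -4.0 in nerve cells (limma adjusted p 6.76e-05 and 3.592e-05). Its cytosolic counterpart Aldh1l1 was lower too, at -2.23 and -2.10 in these groups, as was Cth, the cystathionine lyase that makes cysteine, at -1.97 and -1.98. Ahcy, which hydrolyses S-adenosylhomocysteine, was at -1.75 and -1.60, and Dld, a subunit of the glycine cleavage system, at -1.41 and -1.64, all called lower. The 4 called higher in SKP-derived cells, named after their values were seen, were Gldc (glycine decarboxylase, 1.35), Srr (serine racemase, 0.93), Slc25a32 (mitochondrial folate carrier, 1.06) and Sfxn3 (0.56). Gldc was at 9.41, 7.82 and 8.06 there, against 6.90, 7.60 and 6.73 in SKPs. Its call was lost without SKP array 3 (1.18, limma adjusted p 0.0599).

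Among 22 other ATF4-linked genes, 1 was called higher and 7 lower in SKP-derived cells (median -0.52), and 2 higher and 10 lower in nerve cells (median -0.48). Atf3, a stress-induced transcription factor, was the gene called higher in both groups. It was at 11.37, 10.70 and 10.24 in SKP-derived cells and 11.64, 11.51 and 11.95 in nerve cells, against 7.26, 7.40 and 8.75 in SKPs. All Schwann arrays were above all SKP arrays, by 2.97 on average in SKP-derived cells and 3.90 in nerve cells (limma adjusted p 0.000443 and 9.317e-05). Vldlr, a lipoprotein receptor gene named after its value was seen, was the other one called higher in nerve cells, by 1.40 (limma adjusted p 0.0438). Its 0.98 in SKP-derived cells was not called (limma adjusted p 0.146), but without SKP array 3 it was called in both, at 1.70 and 2.13 (limma adjusted p 6.934e-05 and 2.543e-05). Stc2, a secreted glycoprotein, was lower, at -3.23 and -3.40 in these groups, and Bcat1, the cytosolic branched-chain aminotransferase, at -3.15 and -3.40. Nupr1, a stress-induced chromatin protein, was at -3.39 and -2.01, its nerve call being lost without SKP array 3 (limma adjusted p 0.0775), and Cebpb, a transcription factor, at -2.30 and -2.14. Without SKP array 3 the counts were 3 higher and 7 lower in SKP-derived cells, and 4 higher and 6 lower in nerve cells. In SKP-derived cells 3 were also called higher without SKP-derived array 1, and 2 without SKP-derived array 2. In nerve cells 1 was called higher without any single array other than SKP array 3, and 6 were called lower without nerve array 1.

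Of 19 cytosolic tRNA synthetases, 1 was called higher (Farsa, chosen after its value was seen) and 11 lower in each Schwann group. The Farsa call was lost in SKP-derived cells without SKP-derived array 3 or SKP array 2, and in nerve cells without nerve array 1 or 2. The 4 largest differences from SKPs among them were those of Gars1 (-1.90 in SKP-derived cells and -2.37 in nerve cells), Hars1 (-1.78 and -2.01), Aars1 (-1.62 and -1.68) and Cars1 (-1.42 and -1.5), with the groups in the same order. The medians were -0.72 and -0.70. Of 10 genes of eIF2 kinases and their partners, 0 were called higher and 5 lower in SKP-derived cells (1 higher at an unadjusted p under 0.05), and 1 higher and 5 lower in nerve cells. The 5 lower calls in SKP-derived cells became 3 without nerve array 2 or SKP array 1 and 2 without SKP array 2, and those in nerve cells became 3 without nerve array 1. Without SKP-derived array 2, 1 gene was called higher in SKP-derived cells. Eif2b5, a subunit of the exchange factor of eIF2, was lower, at -1.20 and -1.10, as was Nck1, an adaptor protein, at -0.84 in both groups. Gcn1, which GCN2 needs for its activation, was also lower, at -0.61 and -0.53 (limma adjusted p 0.0308 and 0.048). Its nerve call was lost without SKP array 3 (limma adjusted p 0.0608). Eif2ak1, the haem-regulated kinase, was higher by 0.69 in nerve cells (limma adjusted p 0.0387), a call lost without any 1 of the nerve or SKP arrays (limma adjusted p 0.0754 without SKP array 3).

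Amino acid transporters did not move one way. Of 11, 2 were called higher and 4 lower in SKP-derived cells (median -0.06), and 1 higher and 5 lower in nerve cells (median -0.21). Slc38a1, a glutamine transporter, was higher by 2.42 in SKP-derived cells and 2.53 in nerve cells, and Slc7a5, the light chain of the large neutral amino acid exchanger, by 1.71 in SKP-derived cells (limma adjusted p 0.000425, 0.000298 and 0.00405). The 0.65 of Slc7a5 in nerve cells was not called (limma adjusted p 0.156), but without SKP array 3 it was 1.05 and called (limma adjusted p 0.0112). Slc1a5, which carries glutamine and serine, was lower in these groups, at -2.05 and -2.55, and Slc1a4, which carries serine and alanine, at -2.03 and -2.35. Slc7a11, the cystine carrier, was lower by 2.84 in nerve cells (limma adjusted p 0.0382), a call lost without SKP array 3 (limma adjusted p 0.11). Its -2.54 in SKP-derived cells was not called (limma adjusted p 0.0631). Without that array, 2 transporters were called higher in nerve cells.

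Of 18 genes of the ER unfolded protein response, 0 were called higher and 12 lower in SKP-derived cells (median -1.53), and 1 higher (Xbp1, named after its value was seen) and 12 lower in nerve cells (median -1.56). No gene was higher in SKP-derived cells at an unadjusted p under 0.05 in limma either. Among them Creld2 was at -2.34 in SKP-derived cells and -2.89 in nerve cells, Sdf2l1 at -2.32 and -2.79, and Dnajb11, an ER co-chaperone, at -2.24 and -2.63. Hyou1, an ER chaperone, was at -2.44 and -2.59, and Manf, a secreted ER stress protein, at -2.11 and -2.63, all called lower. Without SKP array 3, which was high for this list, Creld2 in SKP-derived cells was at -1.54 and still called (limma adjusted p 0.000167). In each group 11 were called lower without SKP array 3. Of 14 genes of glucose uptake and glycolysis, the pathway in which 3-phosphoglycerate arises, 0 were called higher (0 at an unadjusted p under 0.05) and 11 lower in each group, with medians of -1.82 and -1.68. Hk2 (hexokinase) was at -3.88 in SKP-derived cells and -3.84 in nerve cells, and Pgk1, whose enzyme makes 3-phosphoglycerate, at -2.81 and -3.01. Pkm (pyruvate kinase) was at -2.77 and -2.58, and Pfkp (phosphofructokinase) at -2.41 and -2.14. Of 12 hypoxia markers, which share the glucose transporter gene Slc2a1 with the glycolytic list, 6 were called lower in each group, such as P4ha2 at -3.05 and -2.34, and 1, Ndrg1, was called higher (1.64 and 1.66; named after its values were seen); their part in the glycolytic levels was not tested.

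For the 6 members whose highest and lowest group means differed by more than 1 unit, the genes of the most similar pattern were taken by the root mean square difference of mean-centred levels over the 9 arrays. These were Id2 (0.311) and Pon1 (0.345) for Psat1, Mageh1 (0.140) and Tmem41b (0.159) for Psph, and Hspe1 (0.304) and Pik3cb (0.326) for Mthfd2. For Asns they were Jag1 (0.413) and Mllt11 (0.538), the least close. Trib3 had another member nearest, Ddit3 (0.311), with Adcy8 (0.360) next, while Ddit3 had Ifi27l2b (0.109) and Adcy8 (0.246). Ifi27l2b stood at 6.09, 6.41 and 5.97 in SKP-derived cells and 6.28, 6.26 and 6.20 in nerve cells, against 7.07, 6.74 and 9.97 in SKPs, with SKP array 3 on top again. Pon1 stood at 6.85, 6.80 and 7.16 in SKP-derived cells, against 4.87, 4.79 and 4.47 in nerve cells and 4.56, 4.49 and 4.76 in SKPs. For Pon1 SKP-derived cells alone were thus high, as on the first Psat1 feature. The second Psat1 feature was called higher in nerve cells than in SKPs as well.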

How the data were processed

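RNA of 9 cultures was measured on 1-colour Rat Gene 1.0 ST arrays. The deposited values are log2 intensities; the submitters' processing notes name RMA and the Expression Console software of Affymetrix; whether all 9 arrays were normalised together is not given in the sources used here. Probe genes came from the platform annotation: 15310 features had 1 symbol, 323 several and 13581 none, and only the first were tested. Array medians differed by group, so cyclic loess (limma 3.58.1, R 4.3.3) was run over 29214 features. Each gene kept its feature of highest mean, and limma fitted group means on all 9 arrays. The genes and lists were chosen with earlier results of these data known. Of other lists, up to 4 called genes with the largest differences per comparison are named. Of 189 list entries 179 were measured; the rest were not analysed here. The fit was tested on simulated data with independent noise and 1 spread per gene. No simulated array stood apart from its group, so that test does not cover arrays that do. The number of arrays limits the precision, no detection calls were used, and levels of different features are not comparable. Alternatives covered scaling, choice of feature, filter, threshold, fit, a replicate block and each array left out.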

Additional observations from a re-analysis of the deposited data

How the results depend on the processing

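Directions and calls of the 9 genes mostly held under the alternatives. The stricter threshold of 0.01 and the 2-fold minimum were not applied to these values. Under other settings 222 values kept direction and call, 7 changed sign, 5 gained a call and 3 lost it. With an array left out, 212 kept both, 11 changed sign, 11 gained a call and 9 lost it. Values that kept both include those not called in either fit. Values that changed sign were, on the deposited scale, 0.0195 for Shmt2 in SKP-derived cells minus SKPs, 0.13 for Shmt1 in nerve cells minus SKPs, and -0.0282 for Phgdh, -0.0588 for Psph and -0.39 for Trib3 in SKP-derived minus nerve cells. With each array centred on its median they were -0.34 for Psat1 in nerve cells minus SKPs and 0.14 for Ddit3 in SKP-derived minus nerve cells. With 1 array left out, SKP-derived cells minus SKPs ranged from -0.048 to 0.37 for Shmt1, -0.29 to 0.37 for Shmt2 and -0.54 to 0.0462 for Mthfd2. Nerve cells minus SKPs ranged from -0.14 to 0.32 for Psat1. SKP-derived minus nerve cells ranged from -0.12 to 0.18 for Trib3 and -0.20 to 0.10 for Ddit3. The Phgdh call for SKP-derived cells minus SKPs was lost with median centring (limma adjusted p 0.0781) and with only the 2 groups compared (limma adjusted p 0.0652).

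The count of members called higher in nerve cells than in SKPs was 2 as deposited, and that called lower was 2 with median centring. The count called higher in SKP-derived than in nerve cells was 2 as deposited, 2 with median centring, 2 with only the 2 groups fitted and 0 at an adjusted p under 0.01. With the replicate block it was 0 (Psat1 limma adjusted p 0.0673). Same-numbered arrays correlated from -0.13 to 0.32 after removal of group means, with 2 of 9 pairs over 0.1. The highest, 0.32, was that of SKP-derived array 2 with nerve array 2. Not every array correlated best with its own number. With 3 arrays per group, whose deviations from their mean are tied to each other, these values cannot decide whether the numbers pair the samples. With 1 array left out, members called lower in SKP-derived cells than in SKPs numbered 0 to 2. In nerve cells against SKPs, 1 to 2 were called higher and 1 to 3 lower. In SKP-derived against nerve cells, 0 to 2 were called higher.

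Over all genes, nerve cells against SKPs gave 3244 higher and 3716 lower calls, and 7211 and 2158 as deposited. SKP-derived against nerve cells gave 106 higher and 87 lower calls, against 193 and 6140 as deposited, 482 and 234 with median centring, 328 and 253 with only the 2 groups fitted, 15 and 7 with the replicate block, and 2 to 314 and 1 to 252 with 1 array left out. With genes below the median level left out they were 33 and 27. On the deposited scale, whose array medians differ by group, most calls between the Schwann groups were lower in SKP-derived cells; the cause was not tested.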
